A study of Homo sapiens with 5 samples.

Results

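The 9 genes FOS, FOSB, FOSL1, FOSL2, JUN, JUNB, JUND, EGR1 and ATF3 were taken by symbol from a count table of 25382 genes, and all 9 were found and tested. They encode the FOS and JUN subunits of the transcription factor AP-1, the zinc finger factor EGR1 and the stress factor ATF3, and are grouped as immediate early factors. The study separated MDA-MB-231 cells, a line of human breast cancer cells that is triple-negative and mesenchymal, by shear stress into cells that held weakly and cells that held strongly to their surface, and asked how their RNA differed. All cells were grown in DMEM with serum and carried no genetic change or drug, so the groups differ by label only in adhesion strength. There were 3 weakly adherent libraries, whose titles carry the dates 6, 12 and 15 March, and 2 strongly adherent libraries, of 6 and 15 March. Separate cultures are not named in the labels, so the p-values rest on a spread between libraries that may be technical.

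AP-1 is a dimer of basic leucine zipper (bZIP) proteins. JUN proteins pair with each other or with a FOS protein, while FOS proteins need a JUN partner to bind DNA. FOS and EGR1 transcription is switched on within minutes by growth factors, stress and mechanical stimulation, mainly through MAP kinases and the serum response factor SRF, and their RNAs decay quickly. FOSL1 (the protein FRA-1) and FOSL2 (FRA-2) respond later and stay on under sustained MAP kinase signalling, and FRA-1 is known as an abundant AP-1 subunit of invasive mesenchymal breast cancer lines. The groups were made by shear, so a response of these genes to the shear itself and a difference present before the shear cannot be told apart. In bulk RNA, fewer cells with a transcript cannot be told apart from less transcript per cell.

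The upstream promoter bases of JUN, JUND, FOS and EGR1 are shown because these 4 genes lay lower in every weakly adherent library and represent the JUN, FOS and EGR branches. JUNB lay lower in the same way but is not shown, and TATAA was the only motif matched in its window. Each line holds the 250 bases before the RefSeq start (build GRCh38.p14), 5′ to 3′ on the gene's strand, at chr1:58784048-58784297 on the minus strand for JUN, chr19:18281623-18281872 on the minus strand for JUND, chr14:75278578-75278827 on the plus strand for FOS and chr5:138465229-138465478 on the plus strand for EGR1. Capitals mark matches to the motifs named after them.
JUN: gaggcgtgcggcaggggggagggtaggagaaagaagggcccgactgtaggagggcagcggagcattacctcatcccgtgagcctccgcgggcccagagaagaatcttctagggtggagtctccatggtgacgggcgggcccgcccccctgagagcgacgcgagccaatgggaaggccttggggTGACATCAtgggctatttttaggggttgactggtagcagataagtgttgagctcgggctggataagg
JUND: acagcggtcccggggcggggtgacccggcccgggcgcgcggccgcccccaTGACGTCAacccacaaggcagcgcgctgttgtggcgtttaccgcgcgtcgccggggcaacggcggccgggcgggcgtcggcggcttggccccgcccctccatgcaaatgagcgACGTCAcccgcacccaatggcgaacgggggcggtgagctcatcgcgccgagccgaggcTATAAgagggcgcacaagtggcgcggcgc
FOS: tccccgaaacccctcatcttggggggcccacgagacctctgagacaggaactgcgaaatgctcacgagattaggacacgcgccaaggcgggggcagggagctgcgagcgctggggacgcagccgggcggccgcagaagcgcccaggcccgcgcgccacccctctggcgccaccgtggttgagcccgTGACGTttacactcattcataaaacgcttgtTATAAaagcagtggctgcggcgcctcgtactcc
EGR1: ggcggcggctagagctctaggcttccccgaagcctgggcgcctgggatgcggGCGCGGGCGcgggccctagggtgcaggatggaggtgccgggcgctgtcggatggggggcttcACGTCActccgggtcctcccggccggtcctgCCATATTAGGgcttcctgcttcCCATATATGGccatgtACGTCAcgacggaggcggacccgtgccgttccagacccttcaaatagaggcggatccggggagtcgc

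Matches were sought on both strands in the 250 upstream bases of all 35116 RefSeq windows, which include 9 windows of 8 of the genes (ATF3 has 2). FOSL1 was not among them. EGR1 held 2 CArG boxes, the sequence that SRF binds, at bases 105 to 96 and 83 to 74 before the start, and 1.16% of all windows held at least 1. EGR1 also held a match to the EGR1 motif GCGNGGGCG at bases 198 to 190, found in 8.41% of all windows. The core TGACGT of the cyclic AMP response element, to which CREB and ATF proteins bind, occurred upstream of FOS, FOSB, FOSL2, JUND and EGR1 and in 7.10% of all windows. The full palindrome TGACGTCA, which contains that core, was upstream of JUND alone among the 9 windows, at bases 200 to 193, and in 1.65% of all. JUN held TGACATCA at bases 67 to 60, the variant site through which JUN and ATF proteins are known to act on the JUN gene. An ATF3 window held the same letters, as did 2.37% of all windows. A TATAA on the gene strand that begins 40 to 20 bases before the start was present for FOS, FOSB, JUNB and JUND and in 3.91% of all windows. The AP-1 motif TGANTCA was in none of the 9 windows and in 6.57% of all. Sites more than 250 bases upstream, of FOS or any other gene, were not sought, so a motif missing here may lie farther off. These matches describe letters only, and no binding was measured.

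FOSL1 was the most abundant RNA of the 9 by far, and FOS and FOSB were among the least. Levels between genes were compared as counts per 1000000 reads (CPM) per kilobase of the longest annotated coding transcript. FOSL1 had a mean of 354 CPM per kb over the 5 libraries (304 to 416), and its mean CPM was at percentile 98.5 of the tested genes. JUN followed at 49.0 CPM per kb (40.1 to 56.3) and FOSL2 at 42.9 (39.7 to 47.3), and the library ranges of these neighbours overlapped. JUND came next at 24.2 CPM per kb and JUNB at 12.1, both apart from their neighbours in every library. ATF3 (3.80 CPM per kb), EGR1 (3.20) and FOS (2.65) formed a low group in which neighbouring ranges overlapped, and FOSB was lowest at 0.484. Which transcript the cells express is not known, so this order depends on the annotated lengths.

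**Figure D1:**
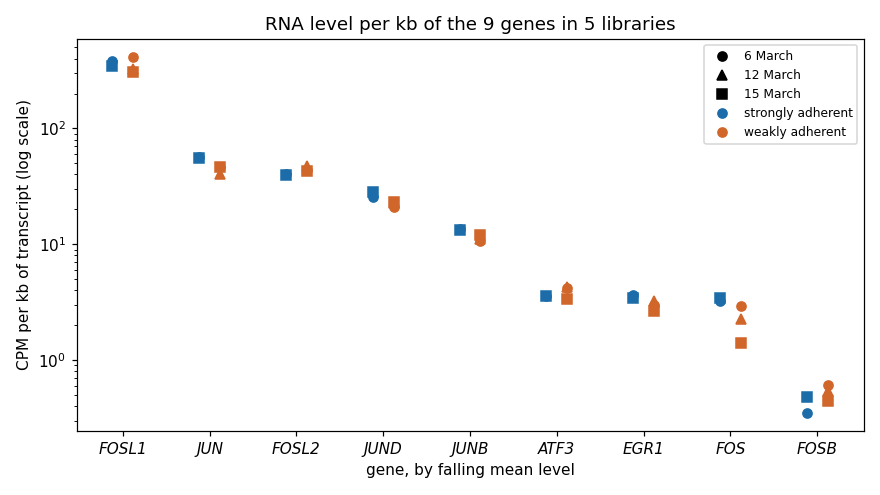
RNA level per kilobase (log axis) of the 9 genes in each library, ordered by their mean. Blue points are the 2 strongly and orange points the 3 weakly adherent libraries, with 1 symbol for each date. FOSL1 lies between 304 and 416 CPM per kb, above every other gene in every library.

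Within the FOS family FOSL1 made up 86.6% to 89.7% of the summed level per kb and FOSL2 9.48% to 12.6%. FOS itself supplied 0.758% and 0.880% in the strongly adherent libraries of 6 and 15 March. In weakly adherent cells it supplied 0.632%, 0.601% and 0.405% on 6, 12 and 15 March. These shares of FOS did not overlap between the groups. Per kb, FOSL1 RNA exceeded FOS RNA by 101-fold to 215-fold, the most in the weakly adherent library of 15 March. In the JUN family JUN supplied 54.3% to 59.5% of the summed level. The summed JUN family stood at 95.4 and 97.4 CPM per kb in strongly adherent cells and at 77.8, 73.9 and 82.2 in weakly adherent cells of 6, 12 and 15 March, with no overlap. The summed FOS family, which FOSL1 sets, overlapped (423 and 390 against 463, 374 and 349 CPM per kb).

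The JUN genes, EGR1 and FOS lay lower in every weakly adherent library than in both strongly adherent ones, and of these only JUN passed the test over all genes. Of the 9 genes 5 lay lower in this way, against 14.5% of all tested genes, and 1 lay higher, against 15.5%. In both pairs of libraries that share a date, 5 were lower in weakly adherent cells (31.0% of all tested genes), 1 was higher (31.9%) and 3 had opposite signs in the pairs (37.2%). By the quasi-likelihood test of edgeR, with adjusted p (Benjamini-Hochberg) under 0.05, 1 of the 9 was lower and 0 were higher. Of the 13297 tested genes 0.918% were lower and 1.77% higher, 2.68% in all. At an unadjusted p under 0.05, 4 were lower and 1 higher, against 6.35% and 7.86% of all tested genes, and DESeq2 also called 1 lower and 0 higher, among 138 lower and 301 higher over all genes. The median log2 fold change, weakly minus strongly adherent, was -0.24 over the 9 genes and -0.00054 over all tested genes. The 9 genes were chosen with earlier results of these data known, so these counts and shares are a description only. With the date as a replicate block, which leaves 1 residual degree of freedom, 3 of the 9 were lower (FOS, JUN and JUND) and 0 higher, against 5.28% and 6.20% of all tested genes.

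**Figure D2:**
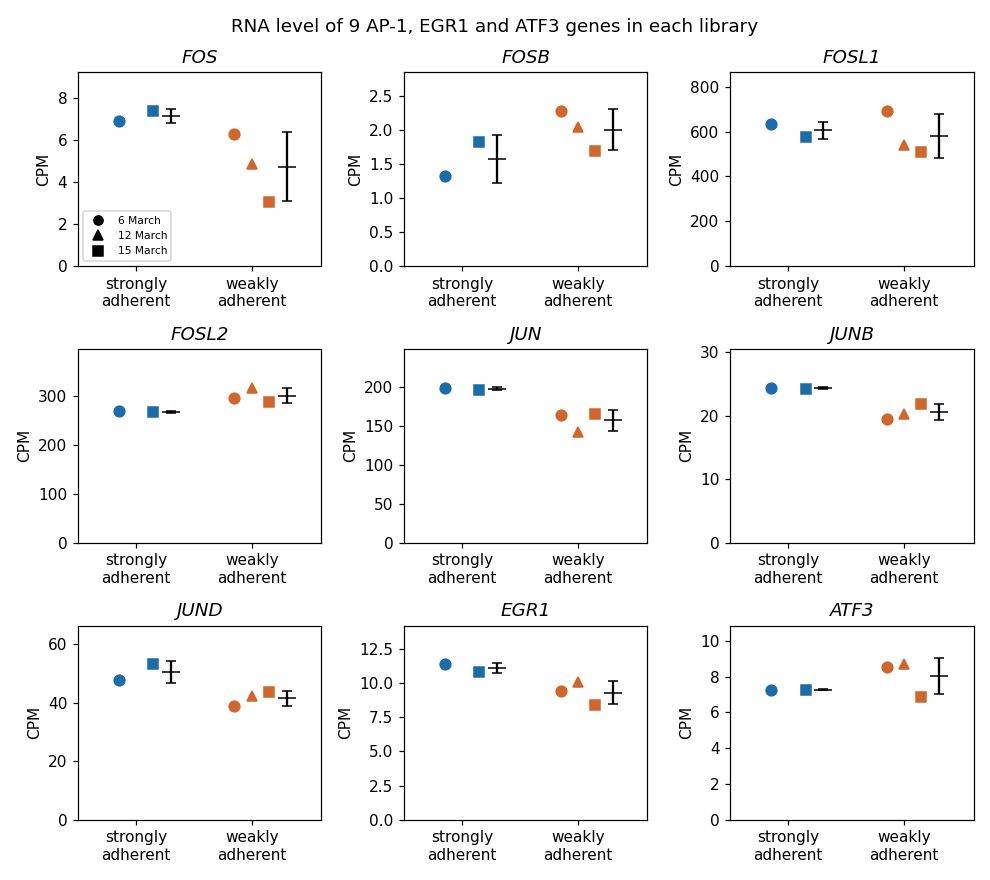
CPM of each of the 9 genes in the 2 strongly (blue) and 3 weakly (orange) adherent libraries, with 1 symbol for each date and the mean ± SD in black. All axes start at 0. The libraries of the groups do not overlap for FOS, JUN, JUNB, JUND and EGR1, which are lower in weakly adherent cells, and for FOSL2, which is higher.

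JUN, a partner of FOS proteins and the most abundant JUN family RNA here, fell. Its libraries held 199 and 197 CPM in strongly adherent cells of 6 and 15 March. They held 164, 142 and 166 CPM in weakly adherent cells of 6, 12 and 15 March. The strongly adherent libraries lay close together and above the weakly adherent ones, of which that of 12 March was lowest. The mean was 198 ± 1.89 CPM (SD, n = 2) in strongly adherent and 157 ± 13.2 CPM (SD, n = 3) in weakly adherent cells, 1.26-fold lower in the latter. Its log2 fold change was -0.33 (SE 0.08, edgeR adjusted p = 0.0485). The difference was of like size in both pairs, at -0.28 on 6 March and -0.25 on 15 March. The call lay close to the threshold: it held in 6 of 14 alternative analyses, with adjusted p from 0.0013 to 0.25. Left-out libraries ended it in 4 of 5 cases: the strongly adherent ones of 6 March (adjusted p = 0.25) and 15 March (0.17) and the weakly adherent ones of 12 March (0.19) and 15 March (0.0688).

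JUND, a JUN family member that most cells express at a steady level and that often restrains growth, had 47.8 and 53.1 CPM in strongly adherent cells of 6 and 15 March. It had 38.7, 42.1 and 43.5 CPM in weakly adherent cells of 6, 12 and 15 March. The groups did not overlap, and the later strongly adherent library was the highest. The log2 fold change was -0.28 (SE 0.09, edgeR adjusted p = 0.14), with -0.30 in the pair of 6 March and -0.29 in that of 15 March. With the date block it passed (log2 fold change -0.30, edgeR adjusted p = 0.0033).

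JUNB, an immediate early JUN protein with weaker activity than JUN at many sites, had 24.4 and 24.2 CPM in strongly adherent cells. It had 19.4, 20.3 and 21.9 CPM in weakly adherent cells of 6, 12 and 15 March. The groups did not overlap, and the gap was smallest on 15 March. The log2 fold change was -0.24 (SE 0.10, edgeR adjusted p = 0.27). In the pair of 15 March the ratio of weakly to strongly adherent was 0.904, with a 95% counting interval of 0.798 to 1.02, so a difference was not detectable there at this depth. Exons of JUNB overlap HOOK2 on the opposite strand in GENCODE 29, and the strand setting of the counting is not given in the sources used here.

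FOS, the prototype immediate early gene, was measured at 147 and 163 reads in strongly adherent cells of 6 and 15 March and at 133, 95 and 67 reads in weakly adherent cells of 6, 12 and 15 March. These are 6.92 and 7.41 CPM against 6.32, 4.85 and 3.05 CPM. The strongly adherent libraries were alike, and the weakly adherent ones were ranged from just under them on 6 March to the lowest level of all on 15 March. The mean was 7.16 ± 0.346 CPM (SD, n = 2) in strongly and 4.74 ± 1.64 CPM (SD, n = 3) in weakly adherent cells. The log2 fold change of -0.60 had an SE of 0.25 and an edgeR adjusted p of 0.32. It was the lowest value among the 9 genes, but without the weakly adherent library of 15 March it was -0.35 (edgeR adjusted p = 0.44) and that of JUN -0.37. The pairs differed: the log2 difference was -0.13 on 6 March and -1.28 on 15 March. The ratio of weakly to strongly adherent was 0.913 (95% counting interval 0.717 to 1.16) on 6 March and 0.411 (0.305 to 0.550) on 15 March. These intervals do not overlap but cover counting error only, and with 1 library of each group on a date the difference between dates was not tested. FOS passed with the date block (log2 fold change -0.65, edgeR adjusted p = 0.0023). That fit leaves 1 residual degree of freedom, so its variance leans mostly on other genes. Its p-value is therefore no measure of how far the pairs of FOS disagreed. FOS also passed when the weakly adherent library of 6 March was left out (-0.87, edgeR adjusted p = 0.0424). It did not pass when any of the other 4 libraries was left out (edgeR adjusted p from 0.44 to 0.63).

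EGR1, a zinc finger factor induced together with FOS through SRF, had 242 and 239 reads in strongly adherent cells and 198, 198 and 185 in weakly adherent cells of 6, 12 and 15 March. In CPM these were 11.4 and 10.9 against 9.41, 10.1 and 8.41. The groups did not overlap, but the weakly adherent library of 12 March lay close to the strongly adherent one of 15 March. The log2 fold change was -0.26 (SE 0.13, edgeR adjusted p = 0.41), with -0.28 in the pair of 6 March and -0.37 in that of 15 March. EGR1 did not pass with the date block either (edgeR adjusted p = 0.10).

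FOSL2, whose protein FRA-2 is a late-responding FOS family subunit, was the 1 gene whose weakly adherent libraries all lay higher. It had 269 and 267 CPM in strongly adherent cells and 296, 317 and 288 CPM in weakly adherent cells of 6, 12 and 15 March. The strongly adherent libraries were nearly equal, and that of 12 March was the highest. The log2 fold change was 0.16 (SE 0.07, edgeR adjusted p = 0.32), with 0.14 on 6 March and 0.11 on 15 March.

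FOSL1, the most abundant of the 9, overlapped between the groups and differed between the dates. It had 634 and 578 CPM in strongly adherent cells of 6 and 15 March and 694, 541 and 507 CPM in weakly adherent cells of 6, 12 and 15 March. The weakly adherent libraries enclosed the strongly adherent ones. The log2 fold change was -0.06 (SE 0.13, edgeR adjusted p = 0.92), and the pairs had opposite signs, 0.13 on 6 March and -0.19 on 15 March. In the 4 libraries of 6 and 15 March, with adhesion as a covariate and 1 residual degree of freedom, FOSL1 was lower on 15 March (log2 difference -0.29, SE 0.07, edgeR adjusted p = 0.00055), though not with DESeq2 (adjusted p = 0.55). It was the only 1 of the 9 called between the dates, where edgeR called 2.55% of tested genes lower and 6.74% higher, 9.29% in all. FOS had -0.38 between the dates (edgeR adjusted p = 0.13), and the other 7 genes had adjusted p of 0.22 or more.

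FOSB and ATF3, which are also rapidly induced, overlapped between the groups. FOSB, the FOS family member closest to FOS in its induction, had only 28 to 48 reads in a library. It stood at 1.32 and 1.82 CPM in strongly adherent cells and at 2.28, 2.04 and 1.68 CPM in weakly adherent cells of 6, 12 and 15 March, a log2 difference of 0.35 (SE 0.26, edgeR adjusted p = 0.65). Its 1.73-fold ratio on 6 March had a counting interval of 1.06 to 2.86, and that of 15 March was 0.925 (0.575 to 1.48). ATF3, a bZIP factor induced by stress that pairs with JUN proteins or represses as a homodimer, had 7.25 and 7.27 CPM in strongly adherent cells. It had 8.55, 8.68 and 6.86 CPM in weakly adherent cells of 6, 12 and 15 March, a log2 difference of 0.14 (SE 0.15, edgeR adjusted p = 0.79). For both genes the weakly adherent library of 15 March was the lowest of its group.

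**Figure D3:**
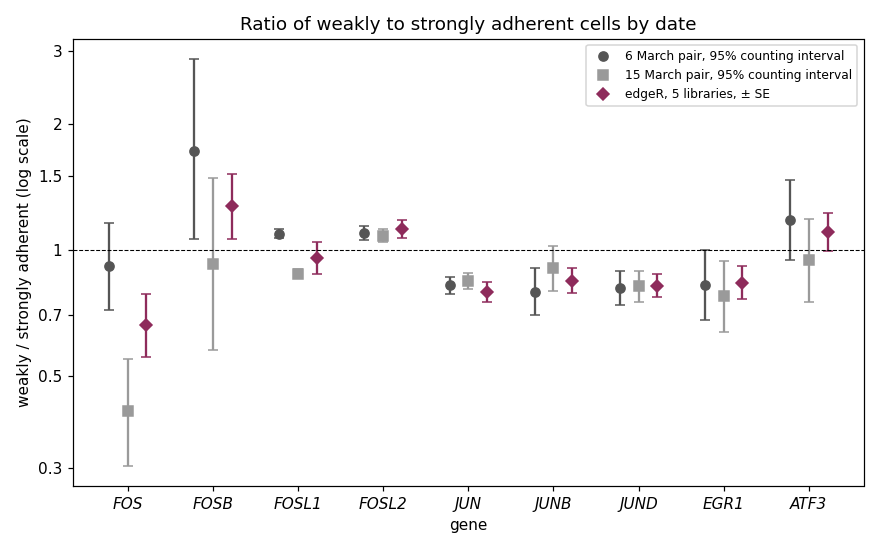
Ratio of weakly to strongly adherent cells (log axis) for each of the 9 genes in the pair of 6 March (circles) and of 15 March (squares), with 95% counting intervals, and edgeR's fold change over 5 libraries ± SE (diamonds). JUN, JUND and EGR1 have like ratios in both pairs, while those of FOS are 0.913 and 0.411 and those of FOSB, FOSL1 and ATF3 lie on both sides of 1.

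All 9 genes have short coding sequences of 543 to 1629 bases, and the 3 JUN genes have a single exon. Coding length matters here because genes with very long coding sequences differed between the groups. The 76 tested genes over 10000 bases had a median centred log2 CPM of -0.53 and -0.34 in the strongly adherent libraries and of 0.30, 0.17 and 0.37 in the weakly adherent ones. Once the trend of each library with coding length was taken out, JUN had a log2 fold change of -0.29 and its call ended (edgeR adjusted p = 0.0922). In that fit 0 of the 9 genes were called, and 1.13% of its 11762 genes, those of known coding length, were called lower. With the date block as well, FOS (-0.61), JUN (-0.22) and JUND (-0.26) were lower, at edgeR adjusted p = 0.0050, 0.0164 and 0.0191, against 5.65% of the same 11762 genes.

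No gene of 3 lists of partners and regulators passed edgeR's test over the 13297 tested genes without the date block. Of 22 partner and other bZIP factors tested, 0 were called by edgeR or DESeq2 without the date block, with 2 higher and 1 lower at an unadjusted p under 0.05 and a median log2 fold change of 0.0014. The 2 with the smallest p were MAFF, a small MAF protein (log2 fold change -0.27, edgeR adjusted p = 0.15 without and 0.0411 with the date block), and DDIT3, the stress factor CHOP (0.27, edgeR adjusted p = 0.19). Of 8 regulators around SRF, 0 were called by either tool, 1 was higher at an unadjusted p under 0.05, and the median was 0.02. MKL2, an SRF coactivator that senses free actin, had 0.39 (edgeR adjusted p = 0.13 without and 0.00018 with the date block). ELK4, a ternary complex factor, had 0.23 (edgeR adjusted p = 0.59). Of 19 MAP kinase pathway genes, edgeR called 0 and DESeq2 called 1 lower, MAP2K3, an activator of p38 kinases (log2 fold change -0.34, edgeR adjusted p = 0.0673, or 0.0024 with the date block); 2 were lower at an unadjusted p under 0.05. The other with a small p was MAPK7, the kinase ERK5 (-0.25, edgeR adjusted p = 0.21), and the list's median was -0.0066. With the date block 2 of the 19 were lower, among them MAP2K3 but not MAPK7, and 0 were higher. Of all tested genes 5.28% were lower and 6.20% higher with that block. Without the date block, MAP2K3 passed edgeR's test with no filter on low counts (adjusted p = 0.0094). It also passed when the weakly adherent library of 6 March was left out (edgeR adjusted p = 0.0345).

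EGR1 was the only EGR family member with enough reads to be tested. EGR2 had 6 to 12 reads in a library, EGR3 0 to 7 and EGR4 0 or 1. The corepressors NAB1 and NAB2, which bind EGR proteins and limit their activity, had log2 fold changes of -0.18 and -0.19 (edgeR adjusted p = 0.79 and 0.68), with library ranges that overlapped. The value of NAB1 turned to 0.12 when the strongly adherent library of 15 March was left out, and that of NAB2 was -0.06 when the weakly adherent one of 12 March was. By edgeR and by DESeq2 0 of these 2 were called, and 0 had an unadjusted p under 0.05.

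Among 30 other immediate early genes, 8 fell and 1 rose, where 0.918% of all tested genes were lower and 1.77% higher. There were 12 lower and 3 higher at an unadjusted p under 0.05 (6.35% and 7.86% of all tested genes), 8 and 0 with DESeq2, which gave ARC no adjusted p, and 13 and 3 with the date block (5.28% and 6.20%). Over the 30 genes the median log2 fold change was -0.13, with 21 genes below 0 and 9 above. The list was chosen with earlier results of these data known, so its counts beside the shares of all genes are a description only. The largest decreases were in CYR61 (-0.72 on the log2 scale, SE 0.08, edgeR adjusted p = 0.00057) and CTGF (-0.62, SE 0.08, edgeR adjusted p = 0.00082), secreted matricellular proteins. SGK1, a survival kinase, fell by 0.60, DUSP1, the phosphatase that ends MAP kinase signals, by 0.59 and HBEGF, a ligand of the EGF receptor, by 0.46 on the log2 scale. ZFP36L1, which speeds mRNA decay, fell by 0.41, the DNA damage gene GADD45A by 0.40 and MYC by 0.37. ARC rose, from 4 and 2 reads to 17, 15 and 12 (log2 fold change 2.29, edgeR adjusted p = 0.0409). With its reads pooled over the libraries of each group, the ratio was 5.06, with a counting interval of 2.15 to 14.5. The calls on CYR61, CTGF and HBEGF held whichever library was left out. Leaving out the strongly adherent library of 6 March ended those on ZFP36L1, DUSP1, MYC, GADD45A, SGK1 and ARC (edgeR adjusted p = 0.13, 0.14, 0.32, 0.31, 0.19 and 0.15), and leaving out that of 15 March those on GADD45A and ARC (0.0734 and 0.30). Of the weakly adherent libraries, that of 12 March ended those on MYC, GADD45A, SGK1 and ARC (edgeR adjusted p = 0.16, 0.16, 0.0594 and 0.10), that of 15 March those on MYC and GADD45A (0.12 and 0.13) and that of 6 March that on ARC (0.0746). The MYC call also ended with the coding-length trend removed (edgeR adjusted p = 0.0523), and that on GADD45A with limma-voom (adjusted p = 0.0521).

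Among genes known as AP-1 or EGR1 targets, 2 of each list fell, where 0.918% of all tested genes were lower. Of 16 tested AP-1 targets 2 fell and 0 rose (3 and 0 at an unadjusted p under 0.05, 2 and 0 with DESeq2, and 5 and 0 with the date block, where 5.28% of all tested genes were lower), with a median log2 fold change of -0.07. The cytokine IL6 fell, with 32.0 ± 1.20 CPM (SD, n = 2) in strongly and 18.7 ± 2.24 CPM (SD, n = 3) in weakly adherent cells (log2 fold change -0.77, edgeR adjusted p = 0.0022), and its call held whichever library was left out. Of 11 tested EGR1 targets 2 fell and 0 rose (2 and 0 at an unadjusted p under 0.05, and 2 and 0 with DESeq2), with a median of -0.13. They were tissue factor F3 (log2 fold change -0.36, edgeR adjusted p = 0.0310) and the matricellular protein THBS1 (-0.39, edgeR adjusted p = 0.0353). The F3 call ended when either strongly adherent library was left out (edgeR adjusted p = 0.0827 for that of 6 March and 0.33 for that of 15 March) or the weakly adherent one of 12 March (0.16). The THBS1 call ended whichever library was left out (edgeR adjusted p from 0.0501 without the weakly adherent library of 6 March to 0.40 without the strongly adherent one of 6 March). With the coding-length trend removed the F3 call ended (edgeR adjusted p = 0.0584), and limma on the deposited log2 values ended that on THBS1 (adjusted p = 0.0685). Many of these targets answer to other factors too. Both lists were chosen with earlier results of these data known, so their counts are a description only.

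**Figure D4:**
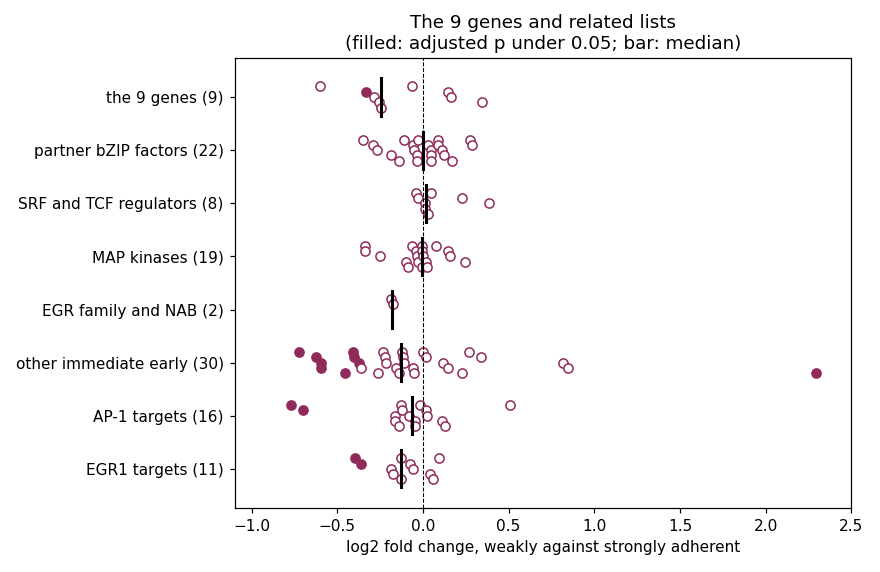
Log2 fold change of the 9 genes and of the tested genes of 7 related lists, with the number tested in brackets. Filled points passed edgeR's test at an adjusted p under 0.05, and bars are medians. The filled points lie among the 9 genes (JUN), the other immediate early genes and the AP-1 and EGR1 targets, all below 0 except ARC at 2.29.

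The genes closest to FOS and EGR1 in pattern were found by the root mean square difference of centred log2 CPM over the 5 libraries, among genes whose mean reached 10 CPM. For EGR1 they were ELF4, OXCT1 and FSTL1, at differences of 0.016, 0.017 and 0.026, against a median of 0.18 over 9343 genes. For FOS they were C4BPB, CD3EAP and HOXB9, at 0.27, 0.28 and 0.29, against a median of 0.47, so these lay farther from FOS than the former did from EGR1. With 5 libraries such likeness is a description only.

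The libraries held 19630386 to 21707459 reads in genes. VIM, CD44, AXL, CAV1, LGALS1 and ZEB1, marks of this mesenchymal line, were present in all libraries, while SPARC stayed under 1 CPM and ESR1 and PGR were at 0 throughout. Summed markers of other cell types ran from 124 to 145 CPM in strongly and 115 to 130 CPM in weakly adherent libraries for leukocytes, nearly all of it CD68, with CD3E at 0. They ran from 17.3 to 23.7 and 19.6 to 22.6 CPM for fibroblasts, with DCN at 0, and from 0.682 to 0.706 and 0.998 to 1.55 CPM for endothelium. The 10 luminal and epithelial markers summed to 1560 to 1704 CPM in strongly and 1414 to 1519 CPM in weakly adherent libraries, mostly keratins, and their part in the results was not tested.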

How the data were processed

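RNA of weakly and strongly adherent MDA-MB-231 cells was sequenced as 50 bp single-end TruSeq Stranded libraries, per the labels' protocols. Reads were handled with STAR, HTSeq, cutadapt, FastQC and DESeq2 on hg19, per the submitters' processing notes. Versions, annotation and strandedness: not given in the sources used here. The authors deposited raw read counts per gene and log2 values. Tested on the files, these log2 values are those of the count divided by a size factor, plus 1, to within 0.00052 reads. HTSeq's 5 summary rows stayed out, of which reads outside genes were 7.96% to 9.84% of uniquely aligned reads.

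Counts were tested with edgeR 4.0.16 (TMM, filterByExpr, robust quasi-likelihood F test, Benjamini-Hochberg over all 13297 tested genes) in R 4.3.3, without the date. Residual degrees of freedom were 3, and the common biological coefficient of variation 7.91%. CPM are TMM-scaled. Each standard error was derived from F and the log2 fold change. Ratios within a date, and the pooled ratio of ARC, carry exact conditional binomial 95% intervals, which cover counting error only. Alternatives were DESeq2 size factors, DESeq2 1.42.0, limma-voom (limma 3.58.1), other filters, the deposited log2 values, each library left out, and the trend with coding length (GENCODE 29, by symbol, known for 88.5% of tested genes, spline with 5 degrees of freedom) removed. Fits were tested on simulated data. Figures used matplotlib 3.10.9.

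Libraries sharing a date in their titles were taken as paired. After subtraction of group means, paired libraries correlated at 0.34 (6 March) and 0.20 (15 March), and what the date marks is not stated. With 2 strongly adherent libraries, their deviations from the mean mirror each other, so these correlations are not independent. The library of 12 March has no partner and adds nothing to the blocked fold change. Replicates differed by more than counting noise (chi-square divided by its degrees of freedom, 7.54 to 12.6). The 9 genes and all lists were chosen with earlier results of these data known. The text names all 9 genes, from each list the 2 genes with the smallest p and every called gene (1 gene is not reported here), and the 3 genes closest to FOS and to EGR1. Promoter windows are from RefSeq (GRCh38.p14), a build other than the authors', and served for sequence only.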

Additional observations from a re-analysis of the deposited data

Results flagged for a closer look

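Of the 9 genes, 3 moved in opposite directions in the pairs of 6 and 15 March, as 37.2% of all tested genes did. The log2 difference between weakly and strongly adherent cells on 15 March minus that on 6 March was -0.90 for FOSB, -0.32 for FOSL1 and -0.32 for ATF3. FOSB rests on 28 to 48 reads in a library. There was 1 library of each group on each date, so these differences between dates were not tested.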

How the results depend on the processing

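All log2 fold changes of FOS, FOSB, FOSL2, JUN, JUNB, JUND, EGR1 and ATF3 kept their sign in the 14 alternatives, and that of FOSL1 in 11. The number of the 9 genes called lower was 0 with limma-voom, with at least 1 CPM in 2 libraries, with the deposited log2 values and with the coding-length trend removed, 3 with the date as a replicate block, with or without that trend removed, and 0 to 2 with 1 library left out. Over all genes, edgeR called 825 higher and 702 lower with the replicate block, against 235 and 122 without it, 111 higher with the coding-length trend removed, 535 and 665 with both, and 203 lower with no filter on low counts. The fits with the coding-length trend removed covered 11762 genes, and the fit with no filter 17958. With 1 library left out, 82 to 238 were higher and 34 to 103 lower. In the 7 lists, 1 gene was higher and 12 lower. DESeq2 and the filter at 1 CPM, where ARC had no adjusted p, each called 0 higher, the replicate block 4 higher and 23 lower, and the block with the coding-length trend removed 4 and 21. With 1 library left out, 0 to 1 were higher and 5 to 12 lower. Between the dates, edgeR called 893 genes higher and 338 lower on 15 March, and DESeq2 160 and 43. The causes of these changes were not tested. Where 1 strongly adherent library is left, it is assumed to vary like the weakly adherent ones. The depth limits FOSB, FOS, ATF3 and EGR1, with 28 to 242 reads in a library.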
